A study of Mus musculus with 16 samples.

Results

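The comparison described here is that of Uhrf1 knockout cells (Uhrf1 KO) with wild-type cells (wtJ1), taken CpG by CpG and copy by copy of the LINE1 retrotransposon. Both genotypes are mouse embryonic stem cells of the J1 line, strain background 129S4/SvJae, and were cultured in serum medium that also contained 2i and LIF. Each was measured in 4 libraries described as biological replicates, which makes 8 of the 16 libraries of the series, and the other libraries are the Uhrf1 point mutants H730A and F46A. Genomic DNA was bisulfite converted, a LINE1 fragment was amplified with 1 set of primers over 40 PCR cycles, and the products were sequenced. The sources used here do not say how the knockout was made or whether it is a single clone. Uhrf1 itself is not covered by the amplicon, and the genotype was therefore taken from the labels alone.

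UHRF1 binds hemimethylated CpG sites behind the replication fork, ubiquitinates histone H3 and brings in the maintenance methyltransferase DNMT1, which copies methylation to the new strand. The methyltransferases DNMT3A and DNMT3B can place methylation without a hemimethylated template. LINE1 elements are retrotransposons scattered over the mouse genome in very many copies, and their CpG methylation is a common readout of maintenance across many loci at once.

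A site is a CpG cytosine on 1 strand, and its methylation level is the share of calls read as C among calls read as C or T. Of 46338 sites listed in any of the 8 libraries, 10933 had at least 10 calls in all 8, and these held 90.6% of the calls. They formed 800 copies, a copy being a run of same-strand tested sites in which neighbours lie no more than 200 bp apart. The median copy had 12 tested sites. Each library held between 1108969 and 1287040 calls over all its sites, with a median coverage of tested sites of 58 to 61 calls in wtJ1 and 65 to 69 in Uhrf1 KO. No molecular identifiers mark the PCR reads, and intervals per site or copy cover less than the full error. No CpG was tested on both of its strands (0 of them), so hemimethylation could not be measured.

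Between replicates 1 and 2 of wtJ1 no difference beyond sampling noise was found in coverage per copy, methylation per copy or methylation per amplicon position (chi-square p = 0.401, 0.624 and 0.478). Their average entered means and SDs as 1 sample, hence n = 3 in wild type and n = 4 in the knockout. Some Uhrf1 KO pairs (1 and 2, 1 and 4, 2 and 4) were also alike in methylation per position (chi-square p = 0.383, 0.872 and 0.666). Those pairs differed in coverage per copy (chi-square p = 0.00589, 0.0402 and 3.14e-04), and the knockout libraries were all counted. Tests used the 4 libraries of each genotype as planned. Nothing in the sources says that the libraries came from separate cultures, so p-values measure the spread between these libraries.

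Over all tested sites the knockout kept about 1 part in 5 of the wild-type methylation. The 4 wtJ1 libraries were at 24.6, 24.5, 25.2 and 25.0%, and the 4 Uhrf1 KO libraries at 4.90, 4.96, 5.04 and 4.90%. The groups did not overlap. The means were 24.9% ± 0.355 (SD, n = 3) and 4.95% ± 0.0683 (SD, n = 4), 5.02-fold lower in the knockout over the 4 libraries of each. The knockout level as a percent of the wild-type level, called retention here, was 19.9% with a 95% interval from 19.4 to 20.6% (exact two-sided permutation test on log2 levels, p = 0.0286, the smallest that 4 against 4 allows). With wtJ1 counted as 3 samples the exact p was 0.0571, the smallest for 3 against 4, so that count cannot pass 0.05. The 8 libraries lay close together, with a coefficient of variation over all listed sites of 1.41% in wtJ1 and 1.34% in Uhrf1 KO, where the H730A and F46A libraries had 11.5 and 17.4%.

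Sites near the coverage minimum kept slightly less. Sites just inside it, whose lowest library had 10 to 12 calls, numbered 1109 and went from 28.9% ± 0.497 (SD, n = 3) in wtJ1 to 5.11% ± 0.157 (SD, n = 4), a retention of 17.7%. Sites just outside, with 7 to 9 calls in their lowest library, numbered 1685 and went from 28.7% ± 0.718 (SD, n = 3) to 4.67% ± 0.145 (SD, n = 4), a retention of 16.3%. All sites left out, 35405, had a retention of 17.5%.

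Nearly every site fell in the knockout. A quasi-binomial model was fitted to each site, with dispersions moderated by limma, and 10294 of 10933 sites (94.2%) came out lower at an adjusted p under 0.05 and 0 (0%) were higher. Before adjustment 0 sites were higher at a p under 0.05, and 47 had a nominally higher level in the knockout. The 639 sites not called lower had a median wild-type level of 11.5% and a median lowest coverage of 17 calls, against 48 for all sites. Of these, 284 had a wild-type level under 10%. Sites differed widely in how much they kept. The median retention per site was 16.4% and the quartiles were 7.76 and 31.2%, and of the 10882 sites with any methylated call in wtJ1 3816 (35.1%) kept under 10% of their wild-type level and 550 (5.05%) kept 50% or more. At 436 sites no methylated call was seen in the knockout, from a median of 87.5 calls, which allows a level of up to 3.43% (3 calls of the total), and the median wild-type level there was 21.5%.

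Copies lost methylation far more evenly than sites. The same model on the summed calls of a copy gave 800 of 800 copies (100%) as lower in the knockout, and in 799 of them all 4 Uhrf1 KO libraries lay below all 4 wtJ1 libraries. Retention per copy had a median of 19.8%, quartiles of 17.6 and 22.4%, and a range from 7.62 to 42.2%. No copy kept 50% of its wild-type level. A copy averages over 12 sites at the median, so its value carries less counting error than that of a site. The sites within copies were therefore compared by their place in the amplicon.

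The CpGs of most copies followed a shared template of 15 positions, numbered in bp in the direction of the called strand, with its first CpG as 1. Of the tested sites 10803 lay on this template, in 914 units (1 unit is 1 full or partial run of the template), and 130 lay off it. At 14 of the 15 positions the knockout was lower without overlap (exact two-sided permutation p = 0.0286 each, adjusted p = 0.0306 over 15 positions). Retention at these positions ran from 4.66 to 41.5%, an 8.91-fold span. The highest wild-type level among them was 3.04-fold the lowest, while in the knockout the highest level was 12.4-fold the lowest.

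**Figure D1:**
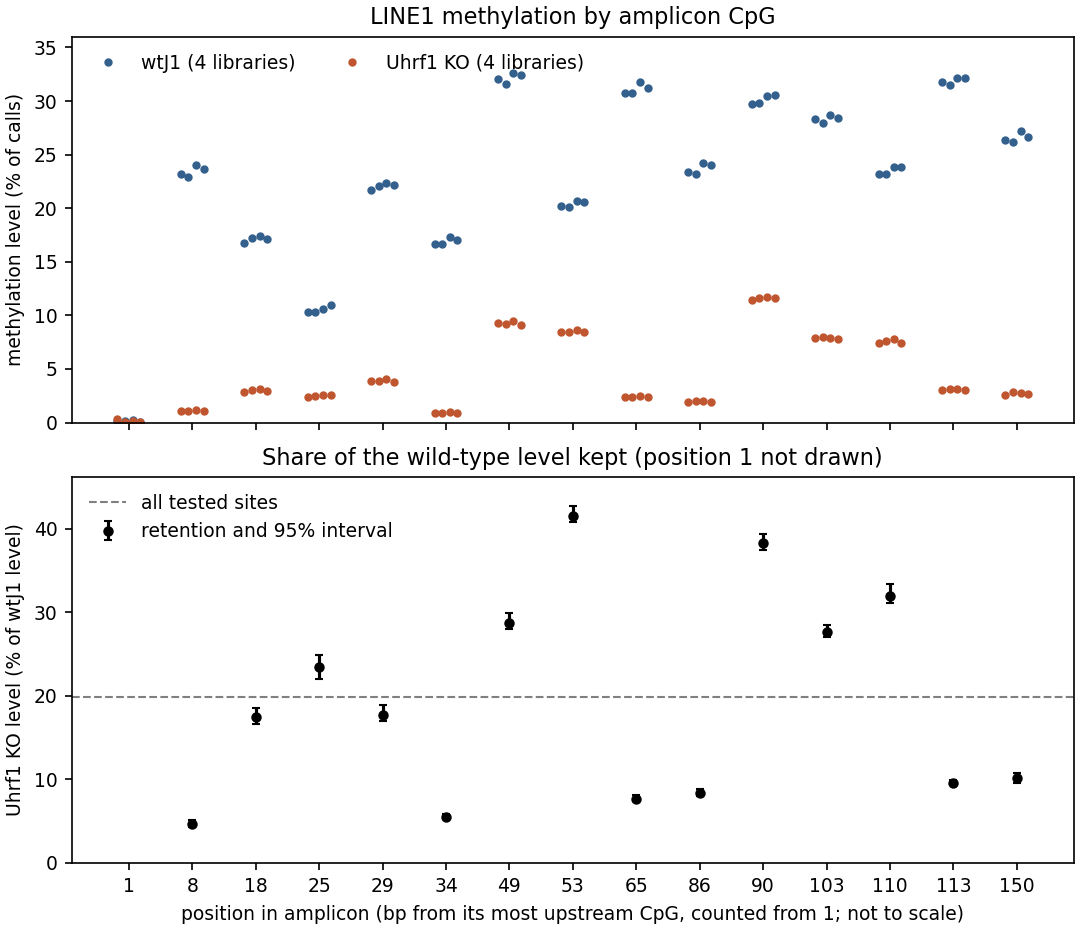
The upper panel shows the methylation level in percent at each of the 15 amplicon positions, with a point per library for wtJ1 (blue) and Uhrf1 KO (orange). The lower panel shows, for the 14 positions other than position 1, the Uhrf1 KO level as a percent of the wtJ1 level with 95% intervals from the exact permutation test, and the dashed line is the retention over all tested sites, 19.9%. Positions 53 and 90 stand highest at 41.5 and 38.3%, and positions 8 and 34 lowest at 4.66 and 5.49%.

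Positions 8 and 34 lost nearly all of their methylation. Position 8 was at 23.2, 22.9, 24.1 and 23.6% in the 4 wtJ1 libraries and at 1.05, 1.06, 1.17 and 1.12% in the 4 Uhrf1 KO libraries. Its retention was 4.66% with a 95% interval from 4.35 to 5.13%. Position 34 was at 16.6, 16.7, 17.4 and 17.1% in wtJ1 and at 0.922, 0.920, 0.982 and 0.918% in Uhrf1 KO, a retention of 5.49% (95% interval 5.29 to 5.91%). These 2 positions differed in level in wild type but came to about 1% in the knockout. Of their sites, 97 of 789 at position 8 and 80 of 707 at position 34 had no methylated call in the knockout.

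Positions 53 and 90 kept the largest shares. Position 53 was at 20.2, 20.1, 20.7 and 20.5% in wtJ1 and at 8.48, 8.43, 8.62 and 8.45% in Uhrf1 KO, a retention of 41.5% (95% interval 40.8 to 42.8%). Position 90 was at 29.7, 29.8, 30.5 and 30.6% in wtJ1 and at 11.5, 11.6, 11.7 and 11.6% in Uhrf1 KO, a retention of 38.3% (95% interval 37.5 to 39.4%). Position 53 had a lower wild-type level than position 8, and a knockout level over 7 points higher. Among 888 sites at position 90, 0 lacked a methylated call in the knockout.

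The remaining positions lay between these. Above the value over all sites, retention was 32% at position 110 and 28.7% at 49. Position 103 kept 27.6% and position 25 kept 23.5%. Below it, position 29 kept 17.7% and position 18 kept 17.4%, and the shares were 10.2% at 150 and 9.58% at 113. Positions 86 and 65 kept 8.35 and 7.69%. Ordered by retention, each position differed from its neighbour in the order (exact two-sided permutation p = 0.0286 each, adjusted p = 0.0310 over 13 pairs) except positions 29 and 18 (exact p = 0.514). Against the retention over all sites, 7 positions were kept above it and 8 below (exact two-sided permutation test on log2 of position level over library level, p = 0.0286 each, adjusted p = 0.0286 over 15 positions). The 7 include position 1, which had 37 sites and almost no methylation in either genotype, 0.169% ± 0.0923 (SD, n = 3) in wild type against 0.166% ± 0.112 (SD, n = 4) in the knockout (exact permutation p = 1.00 for the level). Its retention of 98.3% had a 95% interval from 30.8 to 344%.

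The 5 positions with the highest retention, 53, 90, 110, 49 and 103, held most of what remained. In the 4 wtJ1 libraries 42.6, 42.5, 42.3 and 42.5% of the methylated calls on tested template sites came from them. In the 4 Uhrf1 KO libraries the share was 71.5, 71.2, 70.9 and 71.3%. They were chosen by their retention in these libraries, which by itself raises their share in the knockout, so this is a description without a test. They held 39.4% of all knockout calls on the template.

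CpGs a few bp apart in the same unit kept very different shares. The template has 5 pairs of neighbours at most 5 bp apart. Positions 86 and 90 are 4 bp apart, and in 846 units with both tested the level was higher at position 90 in 781 units (92.3%) in wtJ1 and in 844 (99.8%) in Uhrf1 KO. Retention was higher at position 90 in 839 of them. Positions 110 and 113 are 3 bp apart, and here the order turned around. In 842 units the wild-type level was higher at position 113 in 792 (94.1%), and the knockout level was higher at position 110 in 794 (94.3%). Retention was higher at position 110 in 830 of these units.

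At positions 49 and 53, also 4 bp apart, the wild-type level was higher at position 49 in 679 of 689 units and the knockout level in 432, while retention was higher at position 53 in 598. Positions 29 and 34 are 5 bp apart, and retention was higher at position 29 in 577 of 616 units. Positions 25 and 29, with 410 units, were closest in this respect, and retention was higher at position 25 in 258. Which position of a pair keeps more is set by the position values above, and these counts show how many units share it. Units within a copy or library are not independent replicates.

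The turn between positions 110 and 113 was present in every library. Position 113 was at 31.8, 31.5, 32.2 and 32.2% in wtJ1 and at 3.02, 3.09, 3.12 and 3.03% in Uhrf1 KO. Position 110 was at 23.2, 23.2, 23.8 and 23.9% in wtJ1 and at 7.45, 7.59, 7.75 and 7.42% in Uhrf1 KO. In wild type position 113 was the higher of the pair by about 8 points, and in the knockout it was the lower in all 4 libraries.

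**Figure D2:**
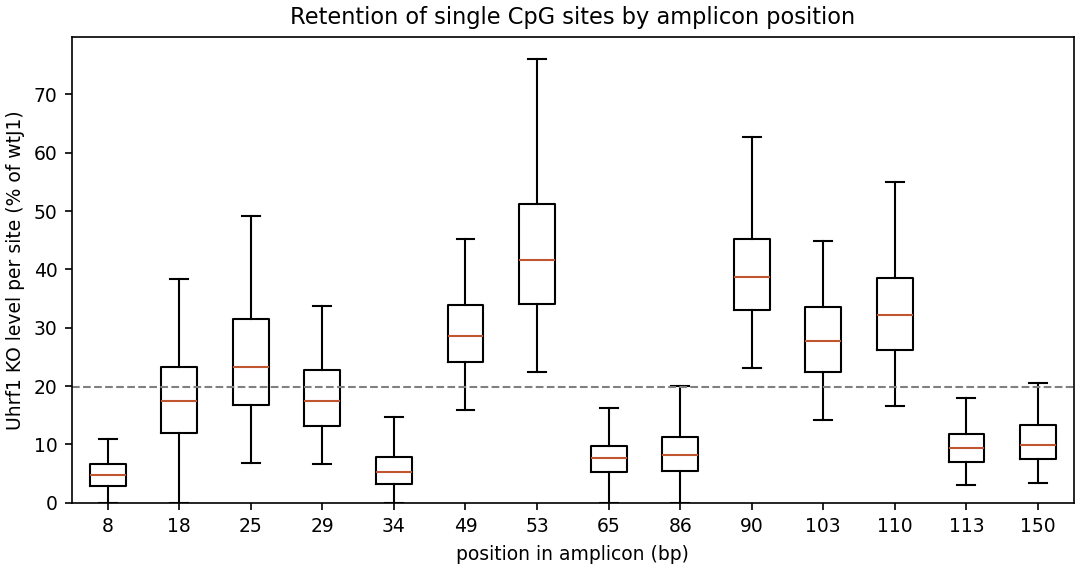
Retention of single CpG sites, the Uhrf1 KO level as a percent of the wtJ1 level from calls summed over 4 libraries, by amplicon position, for sites with any methylated call in wtJ1. Boxes span the quartiles with the median as a line, whiskers run from the 5th to the 95th percentile, and the dashed line is the retention over all tested sites. The boxes of positions 8, 34, 65, 86 and 113 lie below those of positions 49, 53, 90, 103 and 110.

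The positions with the highest and the lowest retention stayed apart wherever the copies lay. In each of 10 classes of copies (inside or outside genes, X or autosomes, plus or minus strand, deep or shallow coverage, 1 or several units), the 5 positions 49, 53, 90, 103 and 110 all had a higher retention than positions 8, 34, 65, 86 and 113. The same was true on 20 of 20 chromosomes. These positions were chosen by their retention over the same sites and libraries, which by itself favours the separation, so this is a description without a test. Retention at position 53 ran from 39.8 to 42.9% over the classes and from 38.5 to 46% over the chromosomes. At position 8 it ran from 4.45 to 4.78% and from 4.07 to 5.79%.

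The share of the variation among sites that went with position rose in the knockout, and the share that went with the copy fell. For each library, the share of the binomial deviance among the 10803 template sites was computed for position alone (15 groups). Separately, it was computed for copy alone (799 groups). Position took 37.6, 37.2, 37.6 and 37.3% in the wtJ1 libraries and 65.3, 65.0, 66.3 and 64.8% in the Uhrf1 KO libraries (exact two-sided permutation p = 0.0286). The copy took 32.7, 33, 32.3 and 31.8% in wtJ1 and 6.56, 6.79, 6.56 and 6.73% in Uhrf1 KO (exact p = 0.0286). Neither measure overlapped between the genotypes. A split into more groups takes a larger share even where the groups do not differ. The shares of position and copy can therefore not be compared with each other, and a small copy share need not be variation between copies. Counting error is a larger part of the deviance where few calls are methylated, and its part in these shares was not tested.

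The sites called by the test of retention followed position. By a log-ratio test on summed calls with limma's moderated dispersion, 1742 of 10933 sites (15.9%) were kept above the pooled retention and 1121 (10.3%) below it. Positions 53 and 90 supplied 459 and 566 of the sites kept above. Positions 65, 8, 113, 86 and 34 supplied 256, 222, 207, 158 and 149 of those kept below. An alternative added after the data were seen tested each template site against the retention of its own amplicon position, and each of the 130 others against the pooled retention of sites off the template. By this 22 sites (0.201%) were kept above, 16 of them on the template and 6 off it, and 0 (0%) below. Leaving out any 1 Uhrf1 KO library brought the count of sites below the pooled retention from 1121 to between 613 and 628, and the balance of the calls depended on the setting. Of all calls 60.8% were above, 73.4% with the median of sites as the centre, 46.9% by limma on log2 levels (1898 above and 2148 below) and 44.4% with a minimum of 100 calls (684 above and 857 below), so in the last 2 more sites were below than above. A site whose knockout level is near 0 has few methylated calls, which limits how many sites can be called below.

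The sites named at the low end had 1 methylated call left in all 4 Uhrf1 KO libraries together. The site chr5:56259669 (mm10, minus strand, outside annotated genes, position 65) was at 40.0, 43.0, 42.2 and 48.1% in wtJ1, and in Uhrf1 KO at 1.02% in replicate 3 and at 0% in the other 3, from 64 to 98 calls per library. Over these 6 sites, the 18 Uhrf1 KO values of 0 allow levels of up to 2.24 to 5.08% (3 calls of the total). The site chr17:39992734 (plus strand, outside genes, position 8) went from 43.3% ± 3.51 (SD, n = 3) to 0.368% ± 0.735 (SD, n = 4). The other 4 were chr4:72080439 and chr4:23288952 at position 8, the latter in the span of Gm38450, chr5:83114933 at position 113 and chr13:62419451 at position 65. Their wild-type means lay between 23.1 and 36.7%. All 6 sit at positions that keep little, and none was called off its own position (adjusted p from 0.548 to 0.873, log-ratio test with limma's moderated dispersion). That decides nothing, since 1 methylated call gives the test little to go on, and 0 of 10933 sites were called below their position. Relative to their positions the estimates stood at -2.92 to -1.63 on the log2 scale.

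The sites named at the high end were almost unmethylated to begin with. They had 2 to 10 methylated calls in wtJ1 and 5 to 17 in Uhrf1 KO, and their levels in wtJ1 summed over libraries were at most 6.49%. The site chr14:44299380 (plus strand, in the span of Gm32857, position 90) had 4 methylated of 248 calls in wtJ1 and 9 of 246 in Uhrf1 KO. The site chrX:152524227 (plus strand, outside genes, position 53) had 10 of 154 and 17 of 219. The remaining 4 were chr1:33019820 at position 53, chr10:129593822 and chr17:19104351 at position 25, and chr11:41111651 off the template. None of the 6 was called lower or higher in the knockout by the quasi-binomial model. None was called off its own position or, for chr11:41111651, off the pool of sites off the template (adjusted p from 0.184 to 0.729, log-ratio test with limma's moderated dispersion). With so few methylated calls these tests could miss a difference.

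The 22 sites kept above their position, or above the off-template pool, are described as a group chosen by that test. Of these, chr8:58389000 (position 86) lies in the span of Galntl6, a gene of the polypeptide GalNAc-transferase family. It went from 16.4% ± 1.59 (SD, n = 3) to 8.39% ± 5.90 (SD, n = 4), a retention of 51.2% from these means, where position 86 kept 8.35%. The site chr16:54432160 (position 29) went from 74.3% ± 10.1 (SD, n = 3) to 52.1% ± 6.10 (SD, n = 4), from 11 to 36 calls per library. Off the template, chr1:40195431 kept 82.8% ± 9.40 (SD, n = 4) of calls methylated against 89.1% ± 5.33 (SD, n = 3) in wtJ1, from only 14 to 31 calls per library. The site chr1:61514860, also off the template, was at 4.47% ± 0.830 (SD, n = 4) against 4.74% ± 0.341 (SD, n = 3) in wtJ1, from 150 to 176 calls per library. The last of these stood near their wild-type level, where the tested sites as a whole kept 19.9%. The 4 were named after their values were seen.

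Few copies were called off the pooled retention, but a copy that was not called is not thereby shown to share it. With a minimum of 100 calls per site a larger part was called, 13 above and 9 below of 153 copies. By the log-ratio test on summed calls with limma's moderated dispersion, 39 of 800 copies (4.88%) were kept above it and 21 (2.62%) below. Without Uhrf1 KO replicate 1, 2, 3 or 4 the count above was 23, 20, 27 and 21, and the count below was 5, 5, 10 and 5. Against the retention expected from the positions each copy holds (sites off the template at their pooled value), 27 (3.38%) were above and 11 (1.38%) below, and 35 copies were called both ways. By limma on log2 levels the count below was 12. LINE1 copies are near-identical, and the sources used here do not say how a read matching several of them was placed, so a value may belong to more than 1 copy.

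**Figure D3:**
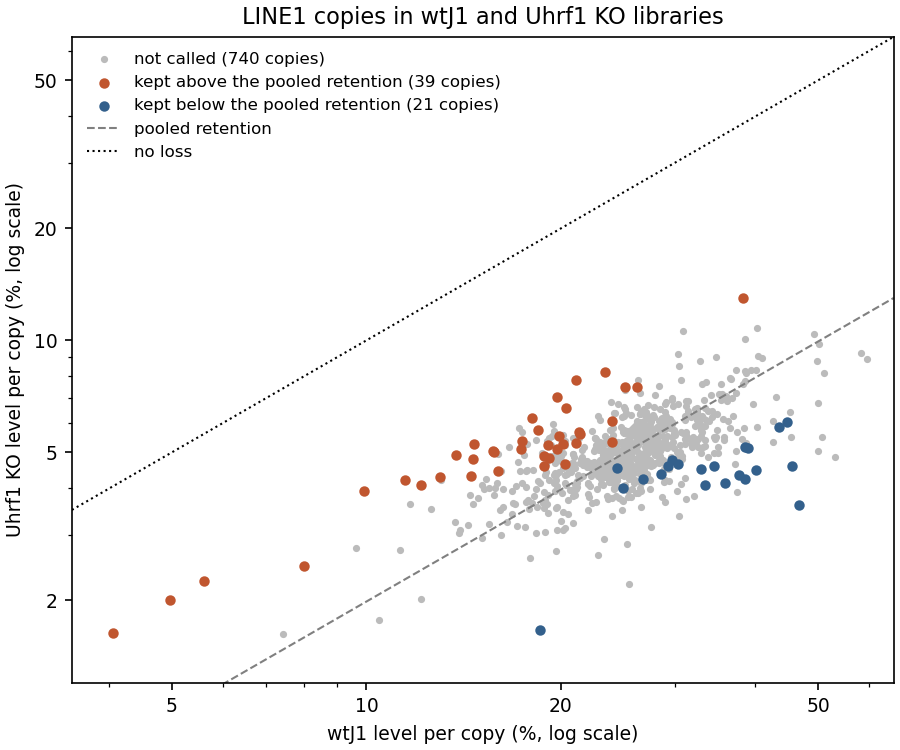
Each point is a LINE1 copy, with its level in wtJ1 on the x axis and in Uhrf1 KO on the y axis, both in percent on log axes. The dashed line is the pooled retention and the dotted line marks no loss. Orange points are the 39 copies kept above the pooled retention and blue points the 21 kept below. All 800 lie below the dotted line.

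The copies that kept the largest share were mostly poor in methylation in wild type. They were chosen by retention, which has the wild-type level as its denominator. That choice by itself favours low wild-type levels, so this is a description without a test. The copy at chr14:44299107-44299943 (plus strand, in the span of Gm32857, 44 sites in 4 units) was at 4.07, 4.29, 4.06 and 3.92% in wtJ1 and at 1.61, 1.70, 1.73 and 1.49% in Uhrf1 KO, a retention of 40.0% (95% interval 31.6 to 50.6%, adjusted p = 5.78e-05). The retention expected from its positions was 21.0%. The copy at chr7:104120227-104120540 (outside genes, 19 sites) went from 4.96% ± 0.694 (SD, n = 3) to 2.00% ± 0.534 (SD, n = 4). Its retention was 42.2% from summed calls, the highest of the 800, and 40.4% from these means. The copy at chr6:68362185-68362513 (outside genes, 21 sites) went from 5.59% ± 0.353 (SD, n = 3) to 2.26% ± 0.312 (SD, n = 4), a retention of 41.3%. The copy at chr10:106390993-106391118 (outside genes, 11 sites) kept 39.5% of a level of 9.90% ± 1.36 (SD, n = 3).

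The other named copies at the high end lie in genes and had higher levels. The copy at chr4:14679386-14679740 in Lrrc69, a leucine-rich repeat gene, was at 13.5, 14.8, 14.2 and 15.7% in wtJ1 and at 5.05, 5.07, 5.70 and 5.20% in Uhrf1 KO. Its retention of 36.3% (95% interval 33.2 to 39.8%) rests on 4339 to 8754 calls per library and had the smallest adjusted p of all copies (7.38e-14), where its positions give 21.6%. Of the 16 template sites above their own position, 4 lie in this copy, at positions 90 and 103 of both of its units. The copy at chr10:41309403-41309528 in Ak9, an adenylate kinase gene, went from 21.1% ± 4.02 (SD, n = 3) to 7.81% ± 1.38 (SD, n = 4), a retention of 36.6% (adjusted p = 0.0180), from 150 to 367 calls per library. Against its positions this copy did not pass (adjusted p = 0.0814).

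The copies that kept the smallest share were mostly rich in methylation in wild type. They too were chosen by retention, which by itself favours high wild-type levels here, so this is a description without a test. The copy at chr6:18586315-18586457 (minus strand, outside genes, 10 sites) was at 48.0, 47.6, 47.5 and 44.8% in wtJ1 and at 4.51, 2.81, 3.60 and 3.51% in Uhrf1 KO. Its retention was 7.62% (95% interval 5.54 to 10.5%, adjusted p = 4.65e-05), the lowest of the 800, where its positions give 15.4%. The copy at chr17:39992734-39992876 went from 40.0% ± 2.32 (SD, n = 3) to 4.49% ± 0.593 (SD, n = 4), a retention of 11.2%. By summed calls, the copies at chrX:81572527-81572669, chr13:72392564-72392706 and chr10:129413299-129413441 kept 9.26, 11.5 and 11.6%. Their mean wild-type levels were 45.6% ± 4.57, 37.7% ± 0.610 and 35.9% ± 4.31 (SD, n = 3). The exception in level was the copy at chr9:87161529-87161671 in Mrap2, a melanocortin receptor accessory protein gene, which went from 18.5% ± 0.522 (SD, n = 3) to 1.67% ± 0.600 (SD, n = 4). Against their positions the copies on X, in Mrap2 and at chr10:129413299 did not pass (adjusted p = 0.0742, 0.119 and 0.0791).

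The deepest copies stood near the pooled retention, with narrow intervals. The copy at chr16:16507552-16508118 in Fgd4 had 34862 to 41426 calls per library and a retention of 18.7% (95% interval 17.9 to 19.5%, adjusted p = 0.0458). The copy at chr2:42083590-42083732 in Lrp1b kept 20.3% (95% interval 19.4 to 21.2%, adjusted p = 0.791). The copy at chr16:84941949-84942727, outside genes, kept 22.2% (95% interval 21.2 to 23.3%, adjusted p = 0.00134). This copy was thus called above the pooled retention, and the copy in Fgd4 below it. Both also passed against their positions (adjusted p = 0.0425 and 0.0306, log-ratio test with limma's moderated dispersion).

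Retention was highest at sites with a low wild-type level. To keep the choice of classes apart from the values, sites were classed by their level in wtJ1 replicates 1 and 2, and the wild-type level was read from replicates 3 and 4. Retention was 45.3% in the 98 sites at 0 to 2%, 34% in the 131 at 2 to 5% and 24.0% in the 528 at 5 to 10%. From 10% upward it stayed between 18.0 and 21.2%. The knockout level itself rose through the classes, from 0.594% ± 0.0849 (SD, n = 4) in the lowest to 9.95% ± 0.233 (SD, n = 4) in the sites above 50%. The lowest class was at only 1.31% in wtJ1 replicates 3 and 4, and the conversion rate was not estimated.

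Sites low and high in wild type were also compared within each position. Replicates 1 and 2 of wtJ1 were used to divide the sites of each position into 4 classes, alike in size. In 14 of 14 positions the knockout level was higher, and the retention lower, in the highest class than in the lowest. The steps between were not all downward, as position 65 went through 7.73, 7.92, 7.70 and 7.42%. At position 53 the knockout level went from 7.23% ± 0.198 to 10.1% ± 0.182 (SD, n = 4) and retention from 50.5 to 37.6%. At position 90 retention went from 44.9 to 35.5%, and at position 8 from 5.33 to 4.09%. The range within a position could exceed the gap to the next, as position 25 went from 30.7 to 18.5%. Copies classed in the same way gave 37.5 and 29.4% at the positions kept above the pooled retention, and 10.4 and 8.90% at those kept below. Replicates 1 and 2 were at a lower level than 3 and 4, and the classes were described without a test.

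**Figure D4:**
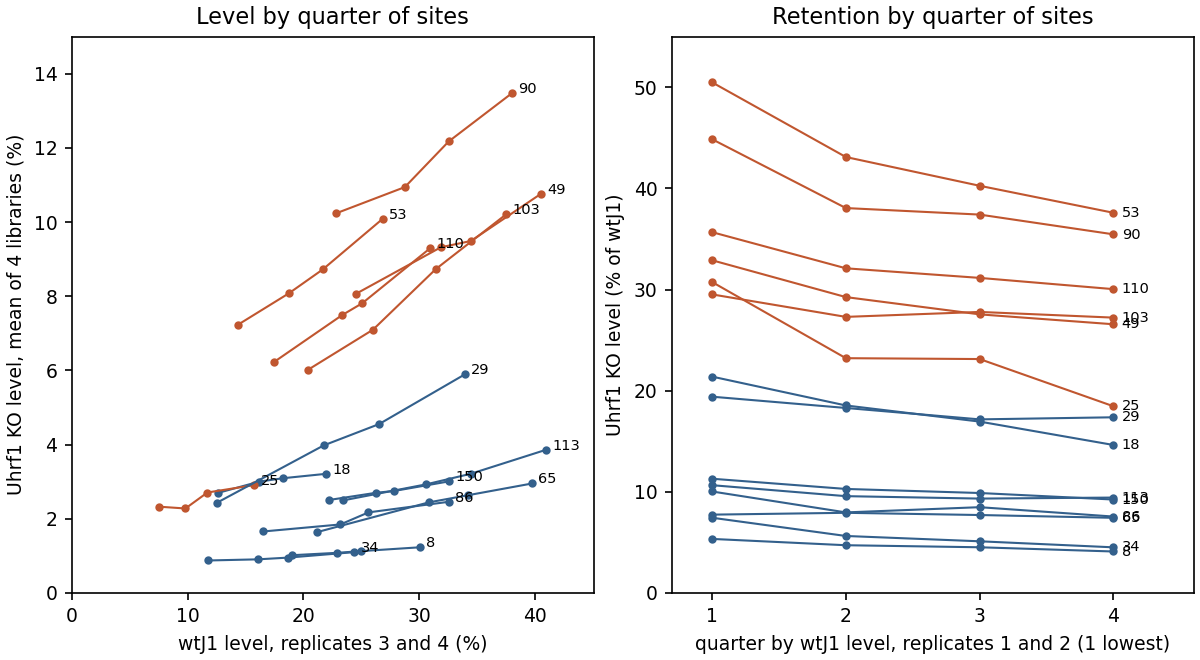
Sites of each of 14 positions in 4 classes by their level in wtJ1 replicates 1 and 2, with a line per position, labelled with its number. Left, the Uhrf1 KO level against the level in wtJ1 replicates 3 and 4, both in percent, and right, the Uhrf1 KO level as a percent of the wtJ1 level from the lowest class (1) to the highest (4). Orange lines are positions kept above the pooled retention and blue lines those kept below, and every line on the right ends lower than it starts.

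Where a copy lay made little difference. Copies inside genes (231) kept 20.0% and copies outside (569) 19.8%, a log2 difference of 0.01 with a 95% interval from -0.03 to 0.04 (exact two-sided permutation p = 0.286). Copies on X (104) kept 20.0% and autosomal copies 19.8%, a log2 difference of 0.02 (95% interval -0.01 to 0.05, exact p = 0.171, adjusted p = 0.229 over 4 comparisons). Plus-strand sites kept 20.0% and minus-strand sites 19.7%, a log2 difference of 0.02 (95% interval 0.01 to 0.05, exact p = 0.0286, adjusted p = 0.0571). Copies above the median coverage kept 20.1% of a wild-type level of 24.6% ± 0.373 (SD, n = 3), and those below it 18.9% of 26.7% ± 0.269 (SD, n = 3), a log2 difference of 0.09 (95% interval 0.07 to 0.12, exact p = 0.0286, adjusted p = 0.0571). None of the 4 passed 0.05 after adjustment. For strand and depth this decides nothing, since no exact p can go under 0.0286 with so few libraries. With only strand and depth at that floor, their adjusted p could not fall below 0.0571. Their intervals started at 0.01 and 0.07, so retention was slightly higher at plus-strand sites and in copies above the median coverage. Over the 4 comparisons, the intervals leave room for differences of up to 0.12 on the log2 scale. By chromosome, retention ran from 18.4% on chromosome 11 to 21.3% on chromosome 8.

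Among host genes from fixed lists, the imprinted copy and the median of the long genes were near the retention over all copies, while single long genes lay further off. Retention per gene is the ratio of the mean library levels. Of 46 imprinted genes only Snrpn and Snhg14, which share 1 copy at chr7:60162996-60163138, held any. This copy was at 26.4, 27.2, 23.7 and 25.6% in wtJ1 and at 5.55, 4.13, 4.88 and 4.20% in Uhrf1 KO, a retention of 18.5%. Among 51 genes known as very long, many of them neuronal or at fragile sites, 12 had 18 copies in their span, with a median retention per gene of 20.2%. By the log-ratio test, the copy in Gpc6, a glypican gene, was kept above the pooled retention, at 31.1%, and the copy in Lrmda was kept below it, at 13.5%. Over all copies 4.88% were kept above and 2.62% below. These genes were named after their values were seen. Lrp1b and Il1rapl1, the genes of the list with the most calls, kept 20.2 and 18.3%.

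Separate sets of libraries gave partly the same values. Retention was computed from replicates 1 and 2 of both genotypes and again from replicates 3 and 4. Pearson's r between the 2 sets was 0.63 over all 10933 tested sites and 0.42 over the 800 copies. Over the 1986 sites with at least 100 calls in every library it was 0.84, and copies were not cut by coverage in this way. With the retention expected from position taken off, r was 0.18 over these 1986 sites and 0.37 over the 800 copies. These correlations are across sites or copies, which share libraries and reads and are not independent, and are given as a description.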

How the data were processed

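The deposited table of each library gives, for a CpG cytosine, the C count and the total C plus T count, per the file headers. The deposited fraction equalled C over the total within 0.0011 when recomputed from the counts. The submitters' processing notes name Trim Galore 0.3.1, BSMAP 2.90, methylKit and mm10 but assign them no steps. Read placement among LINE1 copies is not stated there, which makes the copy or gene of a value uncertain. Only CpG sites are listed, so the conversion rate was not estimated.

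Counts were used as deposited, in R 4.3.3 with limma 3.58.1. Sites needed at least 10 calls in all 8 libraries. Runs of sites with gaps of at most 200 bp formed copies. The most common pattern of CpG distances (13 sites, 127 copies) formed the template, to which positions of 30 or more copies were added, and units had 6 or more sites. Host genes came by span from the GRCm38.p6 RefSeq gene table (GRCm38 is mm10), and exons were not annotated here.

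Library levels were compared by exact two-sided permutation tests, with 95% intervals from inverting them. Sites and copies were tested by a quasi-binomial model for the level and a log-ratio test for retention, with 0.5 added to methylated and 1 to all calls per site. Pearson dispersion was moderated with limma's squeezeVar and kept at 1 or above, and p-values were adjusted by Benjamini-Hochberg over all sites or copies at 0.05. The median dispersion was 2.33 per copy and 1 per site, so site p-values often rest on counting error alone. The models were tried on simulated calls drawn independently per site without added dispersion. That setting differs from the copies here, so it does not test the copy calls at their dispersion.

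Named copies passed the retention test with at least 100 calls in every library, named sites with at least 30 (1 per 1000 bp), taking the 6 highest and 6 lowest. Each gene list contributed its 2 genes of most calls, and the 3 deepest copies were added. The genotypes, lists, template and tests were chosen with earlier results of these data known. Groups came from the sample titles. Whether replicate numbers pair libraries was checked over 800 copies, and deviations of same-numbered libraries correlated at -0.0457, -0.0459, -0.00720 and 0.0545, so no block was used in the values reported. Alternatives were other coverage minimums, centres, gaps, weights and models, and leaving out each library. A result for 1 gene of the list of long genes is not reported here.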

Additional observations from a re-analysis of the deposited data

Results flagged for a closer look

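Among 102 sets of 4 library values checked for a library far from the rest of its genotype by Dixon's test, 10 were picked out, where chance alone gives about 5%. At position 34, Uhrf1 KO replicate 3 was at 0.982%, against 0.918 to 0.922% in the others. In the copy chr6:18586315-18586457, wtJ1 replicate 4 was at 44.8%, against 47.5 to 48.0%. At the site chr10:129593822, wtJ1 replicate 2 was at 0% (72 calls, which allow up to 4.17%), against 1.28 to 1.54%, and Uhrf1 KO replicate 4 was at 5.33%, against 0.935 to 1.33%. At 6 sites a single methylated call in 1 Uhrf1 KO library stood against 0% in the other 3. These were 1.02% at chr5:56259669 (replicate 3), 0.826% at chr4:72080439 (replicate 4), 1.47% at chr17:39992734 (replicate 2), 1.30% at chr5:83114933 (replicate 4), 0.971% at chr13:62419451 (replicate 3) and 1.01% at chr4:23288952 (replicate 2). The naming rule for these 6 sites picks sites with 1 methylated call, which sets this pattern.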

How the results depend on the processing

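The pooled level difference and retention moved little, while counts of sites and copies off the pooled retention moved with depth and the number of libraries. With a minimum of 30 calls 1693 sites were kept below the pooled retention. With 100 calls 1980 of 1986 sites and 153 of 153 copies were lower, 13 copies were kept above and 9 below, 684 sites were kept above, and the log2 difference inside against outside genes was -0.0313 (exact permutation p = 0.114). By limma on log2 levels 12 copies and 2148 sites were below. Against the retention of the positions (sites off the template against their own pool), added after the data were seen, 11 copies were below, 22 sites above and 0 below. With wtJ1 replicates 1 and 2 summed, the level differed by -20.0 points, retention was 19.9%, and the log2 differences by strand and depth were 0.0257 and 0.0842. With the replicate number as a block they were -19.9 points, 19.9%, 0.0243 and 0.0862 (exact sign-flip p = 0.125, the smallest possible). In both, and without any 1 library, 0 positions passed above and 0 below, since these designs cannot reach 0.05. Without 1 library each, the level differed by -20.0 to -19.7 points, retention was 19.8 to 20.0%, the difference by strand 0.0169 to 0.0287 and by depth 0.0791 to 0.0907, copies above numbered 20 to 38 and below 5 to 22, and sites below 613 to 1006. With the block 2373 sites were above. Same-numbered libraries did not deviate together.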
